A study of Rattus norvegicus with 9 samples.

Results

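Genes of cholesterol synthesis, of its transcriptional control and of sterol uptake were examined in rat bone marrow mesenchymal stem cells (MSCs) and in neural progenitor-like cells (NPCs) induced from them. A list of 28 genes was used, and a listed gene was kept where the supplementary tables of the study paired its symbol with an Ensembl gene ID and that ID occurred in the deposited files. An ID was found for 9 of the 28 symbols, and 6 of these (21.4% of the list) were present among the 26249 genes and gene units of the files: Acat2, Pmvk, Fdft1, Cyp51, Srebf2 and Insig2. The IDs of Fdps, Hsd17b7 and Srebf1 were not found in the files, and the other 19 genes, among them Hmgcs1, Sqle, Lss, Insig1 and Scap, were not analysed here. The symbols of these 19 were found neither in the study's table of changed genes nor in its table of all genes. The latter was incomplete as read, since it lacked Acat2 as well. All of these counts rest on the symbols, so the 6 genes are not the whole pathway. The IDs of Acat2, Pmvk, Fdft1, Cyp51 and Srebf2 came from the table of genes that the study called changed between NPCs and MSCs, so the change of these 5 genes is partly a product of how they were found and is no independent evidence of a direction. Insig2 was the 1 gene paired through the table of all genes alone. It was absent from the table of changed genes, so its lack of a call is no independent evidence either.

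mRNA was sequenced from 3 groups of 3 libraries each. The MSC group was untreated Sprague-Dawley bone marrow MSCs at passage 3, cultured according to the methods of the study from 3 rats that were 4 weeks old. The NPC group was the same kind of cell after 3 days with EGF and bFGF, the epidermal and the basic fibroblast growth factors, each at 20 ng/ml, in neural proliferation medium on ultra-low attachment plates. The NPC_IGF1 group (NPCs with IGF-1) was induced for 3 days with EGF, bFGF and insulin-like growth factor 1, for which no concentration was stated, and the paper does not describe this group. No group received the medium and plates without the factors, so the growth factors, the change of medium and the loss of attachment cannot be told apart. Nothing in the labels ties a library number to a rat.

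Cells make cholesterol from acetyl-CoA in a long series of steps: the mevalonate pathway builds isoprenoid units, squalene synthase joins these into squalene, and the sterol rings formed from squalene are trimmed to cholesterol. The membrane-bound transcription factor SREBP-2 switches most of these genes on when sterol in the endoplasmic reticulum is low, whereas INSIG proteins hold it back when sterol is high. When sterol is plentiful, the oxysterol receptor LXR turns on the transporters that export it, so synthesis and efflux genes are classically regulated in opposite directions.

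FPKM values (read density corrected for transcript length and library depth), summed over the isoforms of a gene, were compared with limma on log2(FPKM + 0.1) across all genes tested. Rises and falls were called only where the p adjusted by Benjamini-Hochberg was 0.05 or lower and the log2 fold change was 1 or more in either direction. The depth implied by the confidence intervals of the files was 39.1 to 51.26 M reads per library. Across all genes, libraries of 1 group correlated at r = 0.957 to 0.972 and MSC libraries with induced libraries at 0.877 to 0.909. Among listed marker genes, vimentin (Vim), an MSC marker, had a mean of 2733 FPKM in MSCs and 766 in NPCs. The neural progenitor marker nestin (Nes) was low in both, at 0.117 FPKM in MSCs and 0.305 in NPCs. The log2 fold change of Nes, 0.89 (limma adjusted p = 0.0419), fell short of the size threshold, at levels near the added 0.1 FPKM. Fabp7, another progenitor marker, was listed at 0 in all 9 libraries. The macrophage marker Cd68 went from 0.344 FPKM in MSCs to 10.5 in NPCs and 10.9 in NPCs with IGF-1, whereas the pan-leukocyte marker Ptprc was at 0 or at most 0.014 FPKM in each library. Of 27 marker genes listed, 6 were found in the files, so the makeup of the cultures was checked only in part. The IDs of Vim, Nes and Cd68 came from the table of genes that the study called changed between NPCs and MSCs. Their shifts are therefore no independent evidence of a change in the cultures. In bulk RNA, fewer cells of a type and less RNA of a gene per cell cannot be told apart.

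MSC library 3 stood apart in how its FPKM related to their deposited confidence intervals. The width of each interval implies a number of reads, which can be set against the reads expected from FPKM, transcript length and depth. For lone annotated transcripts of at least 2000 bases and 100 implied reads, the interval implied over 1.3 times the expected reads for 399 of 2315 transcripts (17.2%) in MSC library 3, and for 0 in each of the other 8 libraries. Over the 227 of these transcripts that met the same minima in all 3 MSC libraries, the median ratio of library 3 to library 1 was 0.599 in FPKM and 0.964 in implied reads. Over the 1197 transcripts that met the minima but not the limit, it was 0.919 in FPKM and 0.955 in implied reads. The members Srebf2 and Insig2 were among the transcripts affected, so member results are also given without MSC library 3.

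The 250 bases before the RefSeq start site are shown for the 4 members of 6 that the promoter table held, to set the regulator, 2 members that fell with it and the member that was not called side by side (rat GRCr8, written 5′ to 3′ on the strand of the gene). Srebf2 lies at chr7:115543057-115543306 on the plus strand, Cyp51 at chr4:30991443-30991692 on the plus strand, Acat2 at chr1:50100590-50100839 on the plus strand and Insig2 at chr13:35040099-35040348 on the minus strand. Capitals mark a match, on either strand, to a GC box (GGGCGG), an NF-Y box (CCAAT), an E-box (CACGTG), the sterol regulatory element TCACNCCAC or its shortened form TCACNCCA, which overlaps it. The shortened form was added after the sequences had been seen.
Srebf2: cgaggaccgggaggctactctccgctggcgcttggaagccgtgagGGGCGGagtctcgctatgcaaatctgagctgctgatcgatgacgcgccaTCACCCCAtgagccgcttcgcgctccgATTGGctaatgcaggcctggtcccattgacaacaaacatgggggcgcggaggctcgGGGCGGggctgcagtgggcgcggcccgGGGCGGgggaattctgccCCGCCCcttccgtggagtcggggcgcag
Cyp51: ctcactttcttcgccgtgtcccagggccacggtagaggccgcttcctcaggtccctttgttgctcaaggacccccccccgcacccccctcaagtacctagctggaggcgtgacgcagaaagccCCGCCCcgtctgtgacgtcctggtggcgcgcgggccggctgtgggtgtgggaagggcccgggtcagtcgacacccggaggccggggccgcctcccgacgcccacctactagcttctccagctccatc
Acat2: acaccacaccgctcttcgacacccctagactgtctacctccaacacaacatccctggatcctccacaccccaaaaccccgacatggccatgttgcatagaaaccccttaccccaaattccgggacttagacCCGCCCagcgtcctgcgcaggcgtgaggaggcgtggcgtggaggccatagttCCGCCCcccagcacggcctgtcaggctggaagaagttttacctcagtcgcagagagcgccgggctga
Insig2: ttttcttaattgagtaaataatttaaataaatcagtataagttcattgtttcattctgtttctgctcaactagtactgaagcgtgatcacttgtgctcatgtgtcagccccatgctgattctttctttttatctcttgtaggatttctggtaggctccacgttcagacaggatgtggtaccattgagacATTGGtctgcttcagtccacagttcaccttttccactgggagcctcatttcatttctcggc
The GC box occurred 4 times in the Srebf2 window, 2 times in that of Acat2 and 1 time in that of Cyp51, and was found in 30.5% of 33469 promoter windows of the same length. The NF-Y box occurred 1 time each in Srebf2 and Insig2, against 34% of all windows. The shortened element TCACCCCA of Srebf2 began 156 bases before the start, and that form was present in 3.24% of all windows. No window of the 4 held the full TCACNCCAC, which 0.974% of all windows held, or the E-box, which 5.59% held. Matches of this kind describe letters only and are not evidence of binding.

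Acat2 and Pmvk represent the early, mevalonate end of the route. Acat2, the cytosolic thiolase that joins acetyl-CoA units (chr1:51757962-51776935, minus strand, in the coordinates of the files, whose build no label or file header names), was at 10.95, 12.8 and 10.9 FPKM in MSC libraries 1 to 3. In NPCs it was at 1.71, 1.78 and 2.09 FPKM. In NPCs with IGF-1 it was at 1.82, 1.76 and 1.66 FPKM. Each of the 6 induced libraries lay far below the lowest MSC library, and the induced groups overlapped. The log2 fold change of Acat2 was -2.65 (SE 0.18, limma adjusted p = 7.95e-05), or 6.26-fold lower in NPCs than in MSCs. Pmvk, phosphomevalonate kinase (chr2:208198108-208207798, plus strand), was at 20.1, 19.7 and 19.1 FPKM in MSCs, a spread of 2.52% (CV, n = 3). It was at 8.24, 7.01 and 7.06 FPKM in NPCs. With IGF-1 it was at 7.52, 9.25 and 7.73 FPKM. The MSC libraries were thus all above 19 FPKM and the induced libraries all below 10, and Pmvk fell by 1.47 on the log2 scale in NPCs (SE 0.15, limma adjusted p = 0.000388).

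Fdft1, squalene synthase, commits farnesyl diphosphate to sterols (chr15:50104043-50132096, minus strand). It was at 13.6, 16.0 and 11.9 FPKM in MSCs. The NPC libraries held 4.87, 5.39 and 4.62 FPKM. The NPC libraries with IGF-1 held 3.83, 4.25 and 4.89 FPKM. No induced library reached the MSC range, and Fdft1 fell by 1.53 on the log2 scale in NPCs (SE 0.15, limma adjusted p = 0.000355).

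Cyp51, lanosterol 14-alpha-demethylase, takes the first step from lanosterol towards cholesterol (chr4:27078469-27096431, plus strand). It was the most abundant member in MSCs, at 64.3, 74.9 and 45.2 FPKM, above 93.3% of the genes tested. In NPCs it was at 11.7, 7.32 and 6.23 FPKM. With IGF-1 it was at 6.51, 9.89 and 6.47 FPKM. The NPC mean stood above 58% of genes, and NPC library 1 was the highest induced library. Cyp51 fell by 2.96 on the log2 scale in NPCs (SE 0.25, limma adjusted p = 0.000204), the largest change among the 6 members, and 178 of 13696 genes (1.3%) had a lower fold change. The Cyp51 sum joined the annotated transcript of 10 exons and 2528 bases with an assembled isoform of the same exon number whose 3′ end lay 774 to 914 bases further on. This longer isoform was assembled in 8 of 9 libraries, all but NPC_IGF1 library 2, and made up 34.8 to 37.8% of the Cyp51 FPKM in MSCs and 39.7 to 48.5% in the 5 induced libraries that had it. With the annotated transcript alone, the log2 fold change in NPCs was -3.08. The check of intervals against FPKM was set for lone transcripts, so it did not cover the 8 libraries with both isoforms. In these, the interval of the annotated isoform implied 0.248 to 0.430 times the expected reads in MSCs. In NPCs it implied 0.553 to 0.607 times. The cause was not tested, and the size of the Cyp51 change is given on the FPKM scale only.

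Srebf2, which encodes SREBP-2 (chr7:123364495-123422294, plus strand), was itself lower after induction. It was at 18.7, 16.3 and 12.9 FPKM in MSCs. The NPC libraries were at 6.88, 5.40 and 6.25 FPKM. The libraries with IGF-1 were at 5.45, 6.27 and 6.96 FPKM. The lowest MSC value was again MSC library 3, and it was still above each induced library. Srebf2 fell by 1.43 on the log2 scale in NPCs (SE 0.17, limma adjusted p = 0.000857). The 12.9 FPKM of MSC library 3 went with an interval worth 4489 reads, more than the 4232 of library 1 at 18.7 FPKM, and 1.51 times the reads expected. On a scale of implied reads divided by transcript length and depth, Srebf2 in MSC library 3 was at 19.6. MSC libraries 1 and 2 were at 19.7 and 16.8 on that scale.

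Insig2, an endoplasmic reticulum protein that retains the SREBP-SCAP complex when sterol is high, was the member that did not pass the test (chr13:42366079-42388541, minus strand). Its MSC libraries spread more than those of any other member, at 7.29, 9.29 and 3.75 FPKM. The NPC libraries were at 6.01, 5.73 and 5.54 FPKM. The libraries with IGF-1 were at 6.15, 6.95 and 7.32 FPKM. The highest and the lowest of all 9 values were both MSC libraries, so the groups overlapped. The log2 fold change in NPCs was -0.21 (SE 0.27, limma adjusted p = 0.569), with a 95% confidence interval from -0.85 to 0.42, which spans 0. The value of MSC library 3 carried an interval worth 787 reads, close to the 801 of library 1, and 1.87 times the reads expected from 3.75 FPKM. On the scale of implied reads divided by length and depth, Insig2 in MSC library 3 was at 7.02. MSC libraries 1 and 2 were at 7.63 and 9.26 on that scale. Without MSC library 3, the log2 fold change of Insig2 in NPCs was -0.52 (limma adjusted p = 0.0693), still short of the threshold.

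**Figure D1:**
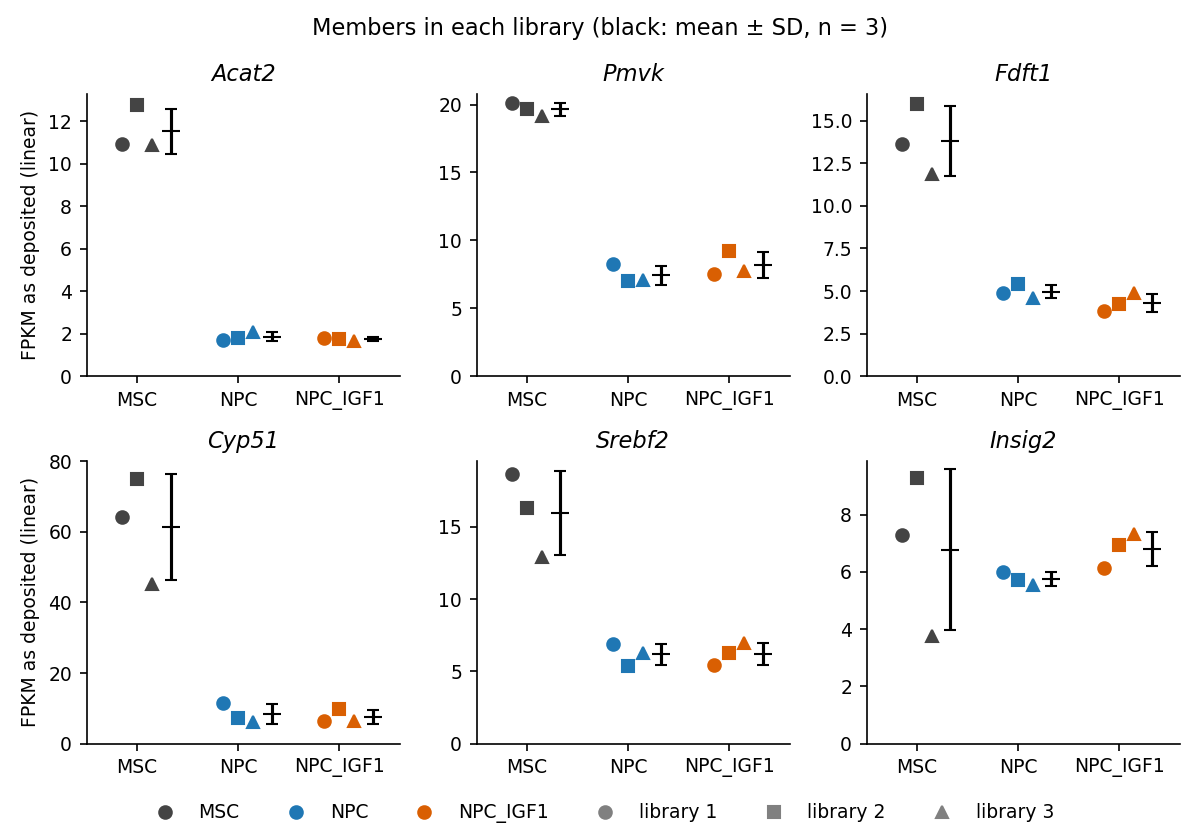
FPKM as deposited, on linear axes from 0, of the 6 members in each library, with colours for the 3 groups, shapes for the library numbers and black marks for the mean ± SD (n = 3). For Acat2, Pmvk, Fdft1, Cyp51 and Srebf2 the MSC libraries lie above all induced libraries, while the MSC libraries of Insig2, from 3.75 to 9.29, span the induced ones.

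**Figure D2:**
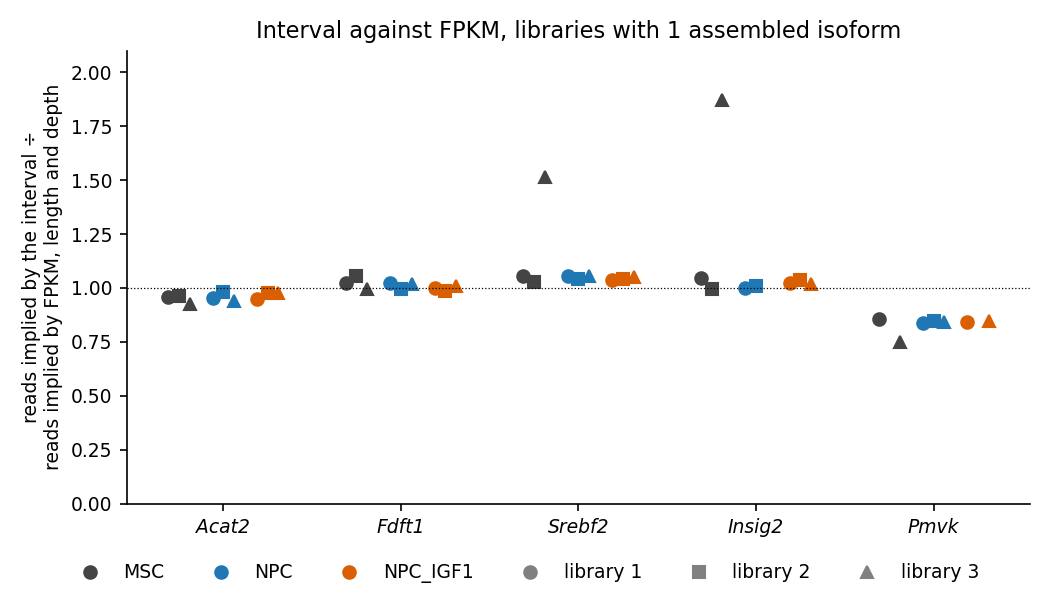
Reads implied by the deposited confidence interval, divided by the reads expected from FPKM, length and depth, for the members in each library where 1 isoform was assembled, with a dotted line at 1. MSC library 3 stands at 1.51 for Srebf2 and 1.87 for Insig2, while each other Srebf2 and Insig2 library shown lies near 1.

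In NPCs against MSCs, 5 of the 6 members fell, 0 rose and 1 did not pass the test, with a median log2 fold change of -1.50. Over all 13696 genes tested, 10.1% fell and 25.9% had NPC libraries that all lay below the MSC libraries, as the same 5 members did, and the median log2 fold change was 0.02. Because those 5 were found through the study's own list of changed genes, nothing is read from the excess over the background. Without MSC library 3, the 5 members still fell, with log2 fold changes of -2.63 for Acat2, -1.43 for Pmvk, -1.57 for Fdft1, -3.10 for Cyp51 and -1.51 for Srebf2.

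Against the same MSC libraries, the cells induced with IGF-1 gave log2 fold changes of -2.74 for Acat2, -1.35 for Pmvk and -1.74 for Fdft1. Cyp51 was at -3.08 and Srebf2 at -1.43 on the same scale. These 5 members fell, with limma adjusted p from 4.84e-06 for Acat2 to 0.000181 for Srebf2, and Insig2 was at 0.01 (SE 0.25, limma adjusted p = 0.982). Of the 14228 genes of that fit 9.83% fell. In 27.3% of them all NPC_IGF1 libraries lay below the MSC libraries, as in the same 5 members. Both comparisons use 1 set of MSC libraries, so their likeness is not a replication. Without MSC library 3, the log2 fold changes with IGF-1 were -2.72 for Acat2, -1.31 for Pmvk, -1.79 for Fdft1, -3.23 for Cyp51, -1.51 for Srebf2 and -0.31 for Insig2.

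The direct comparison of the induced groups asked whether IGF-1 moved these genes beyond EGF and bFGF. No member was called, and 0.0211% of the 14228 genes were called over the whole table (2 rose, 1 fell), with 4.62% at an unadjusted p under 0.05. The largest difference in size was that of Insig2, with a log2 fold change of 0.22 and a 95% confidence interval from -0.33 to 0.78. All 3 Insig2 libraries with IGF-1 lay above the 3 NPC libraries, as did those of 5.10% of all genes. For Fdft1 the log2 fold change was -0.21 with an interval from -0.53 to 0.11, and for Srebf2 it was -0.003 with an interval from -0.37 to 0.36. The Cyp51 interval ran from -0.71 to 0.45, the Acat2 interval from -0.45 to 0.26 and the Pmvk interval from -0.18 to 0.42. A log2 difference of 1 in either direction lay outside the interval of each member, and smaller differences were not resolved.

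**Figure D3:**
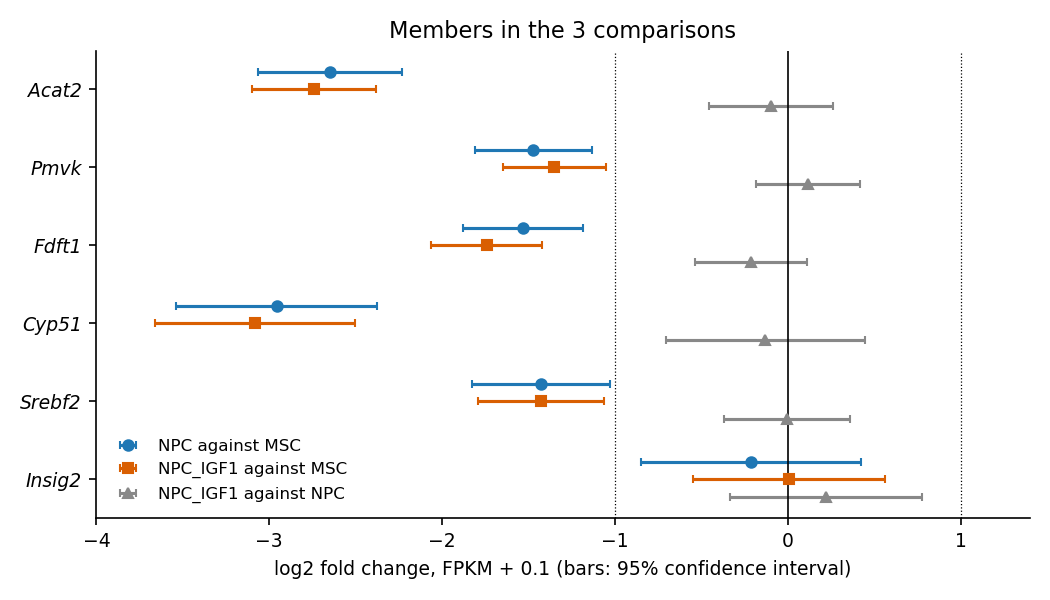
Log2 fold changes of the 6 members on the FPKM + 0.1 scale with 95% confidence intervals, for NPC against MSC, NPC_IGF1 against MSC and NPC_IGF1 against NPC, with dotted lines at -1 and 1. Acat2, Pmvk, Fdft1, Cyp51 and Srebf2 lie below -1 in both comparisons with MSCs, and all 6 members have intervals across 0 between the induced groups.

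The members did not fall by like amounts, which a ratio within each library shows without scaling between libraries. Cyp51 was 3.44, 4.58 and 3.50 times the FPKM of Srebf2 in MSCs and 0.997 to 1.69 times in NPCs. Acat2 was 0.586 to 0.841 times Srebf2 in MSCs and 0.248 to 0.335 times in NPCs. For both genes the MSC and induced libraries did not overlap, so their transcripts fell further than that of the regulator. Pmvk, at 1.08 to 1.48 times Srebf2 in MSCs and 1.13 to 1.298 in NPCs, and Fdft1, at 0.728 to 0.978 and 0.708 to 0.999, kept overlapping ratios. For Insig2 the ratio to Srebf2 rose, from 0.290, 0.390 and 0.569 in MSCs to 0.875 to 1.06 in NPCs and 1.05 to 1.13 with IGF-1. Insig2 itself was not called, at a log2 fold change of -0.215 in NPCs, so its raised ratio reflects the lower divisor. Of the 13696 genes tested, 6.53% had a lower fold change than Srebf2 in NPCs, so most genes would show a raised ratio. In MSC library 3 these ratios use the Srebf2 and Insig2 FPKM whose intervals implied more reads. By mean FPKM the order in MSCs was Cyp51, Pmvk, Srebf2, Fdft1, Acat2 and Insig2, where Srebf2, Fdft1 and Acat2 overlapped with their neighbour. In NPCs Insig2 stood above Fdft1 and Acat2 with no overlap.

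**Figure D4:**
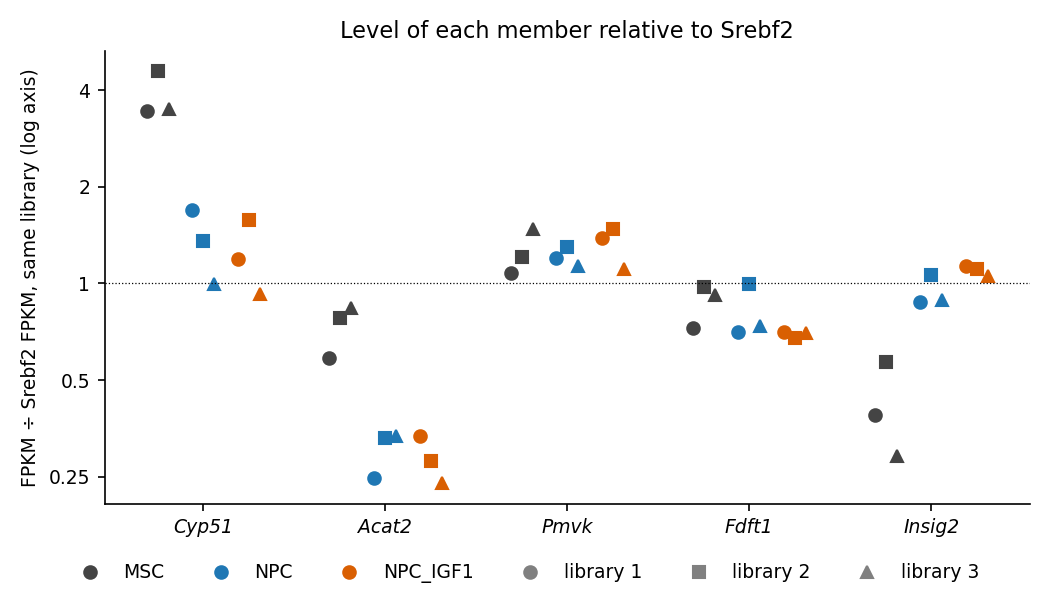
FPKM of 5 members divided by the FPKM of Srebf2 in the same library, on a log axis, with colours for groups and shapes for library numbers. Cyp51 and Acat2 ratios are lower in all induced libraries than in MSCs, Insig2 ratios are higher, and those of Pmvk and Fdft1 overlap.

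Other lipid genes were taken from 6 lists with 87 entries, of which 19 were found in the files and 17 were tested. In NPCs 6 of the 17 fell, 3 rose and 8 did not pass the test, where 10.1% of all genes fell and 11.4% rose. All 3 that rose and most that fell were found through the study's table of changed genes. Nothing is therefore read from the excess over these shares or from the direction of a list. The efflux list was the one whose calls were rises. Abca1, the transporter that loads sterol onto lipid-poor apolipoprotein, was at 5.52, 6.71 and 6.93 FPKM in MSCs and at 60.4, 78.8 and 67.9 FPKM in NPCs, a log2 fold change of 3.33 (SE 0.18, limma adjusted p = 3.29e-05). Abcg1, which exports sterol to mature lipoproteins, was at 0.929, 0.847 and 1.21 FPKM in MSCs and at 18.9, 24.3 and 19.7 FPKM in NPCs, a log2 fold change of 4.20. Nr1h3, which encodes LXR-alpha, was at 0.930, 1.28 and 0.721 FPKM in MSCs and at 12.8, 17.9 and 13.5 FPKM in NPCs, a log2 fold change of 3.73. These 3 rose in both induced groups, and with IGF-1 11.6% of all genes rose. Pltp, the phospholipid transfer protein, had a log2 fold change of 0.68 (limma adjusted p = 0.0895) and was not called. The efflux genes are also expressed in macrophages, and Cd68 moved with them at a log2 fold change of 4.55, while Ptprc stayed at or near 0 in all 9 libraries. The part of such cells in the efflux result was not tested. IDs of the 4 efflux genes came through the table of changed genes, and that of Abcg1 was in the table of all genes too. The ID of Cd68 came through the table of changed genes as well, so nothing is read from their shared rise.

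Of the sterol accessory genes, 3 of 4 fell in NPCs, against 10.1% of all genes: Tmem97, a sterol-responsive membrane protein, at a log2 fold change of -1.32, Erg28, a scaffold of the sterol demethylation enzymes, at -1.15, and Bdh1, a ketone body dehydrogenase, at -1.45. Tmem97 and Erg28 were found through the table of changed genes, so nothing is read from the excess. Bdh1 was found through the table of all genes alone. Por, the reductase that passes electrons to CYP51, did not pass the size threshold, at 0.61 (limma adjusted p = 0.0393). MSC libraries 1 to 3 held 20.2, 18.8 and 12.5 FPKM of Por, lowest in MSC library 3. All NPC libraries of Por lay above the MSC libraries, as did those of 25.2% of all genes. With IGF-1, Tmem97 was at -0.91 and was not called, whereas Erg28 and Bdh1 fell. Scarb1, the receptor that takes up sterol from high density lipoprotein, was at 18.6, 19.6 and 16.8 FPKM in MSCs and at 6.70, 10.3 and 6.69 FPKM in NPCs, and fell by 1.31 on the log2 scale (limma adjusted p = 0.00178). Scarb1 was the 1 gene of the receptor and lysosomal list found in the files.

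Of the fatty acid and related lipid genes, 2 of 5 fell, against 10.1% of all genes. Both were found through the table of changed genes, so nothing is read from the excess. Fabp3, a fatty acid binding protein, went from 134, 131 and 171 FPKM in MSCs to 11.3, 16.0 and 13.0 FPKM in NPCs (log2 fold change -3.51). Fads1, the delta-5 desaturase and an SREBP-1 target, went from 19.2, 21.7 and 19.4 FPKM to 7.28, 8.32 and 8.11 FPKM (-1.42). Mid1ip1, an activator of acetyl-CoA carboxylase, was at -0.69, Agpat3 at -0.31 and Aacs at -0.03, none of them called. Aacs was at 10.6, 10.7 and 4.71 FPKM in MSC libraries 1 to 3, so its value rests in part on MSC library 3. Values without that library are given for members only. Elovl6 was listed at 0 in all 9 libraries and Acacb lay under the minimum level, so neither was tested. In the isoprenoid branch, Nus1, a subunit of the dolichol-forming enzyme, was at -0.51 (limma adjusted p = 0.0338) and Coq2, which attaches the ubiquinone side chain, at -0.06, so 0 of 2 passed the size threshold. Paqr3, which anchors the SREBP-SCAP complex in the Golgi, was at 0.29 and was not called.

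Calls were also counted by the table through which a gene was found. Of the members and other lipid genes together, 13 were paired through the table of changed genes and 12 of these were called in NPCs, 9 lower and 3 higher. The 10 that were paired through the table of all genes alone gave 2 calls, both falls (Bdh1 and Scarb1), and a median log2 fold change of -0.26. These 10 genes were absent from the table of changed genes, so few calls were to be found among them. Nothing is therefore read from the 2 calls against the 21.5% of all genes called in either direction.

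**Figure D5:**
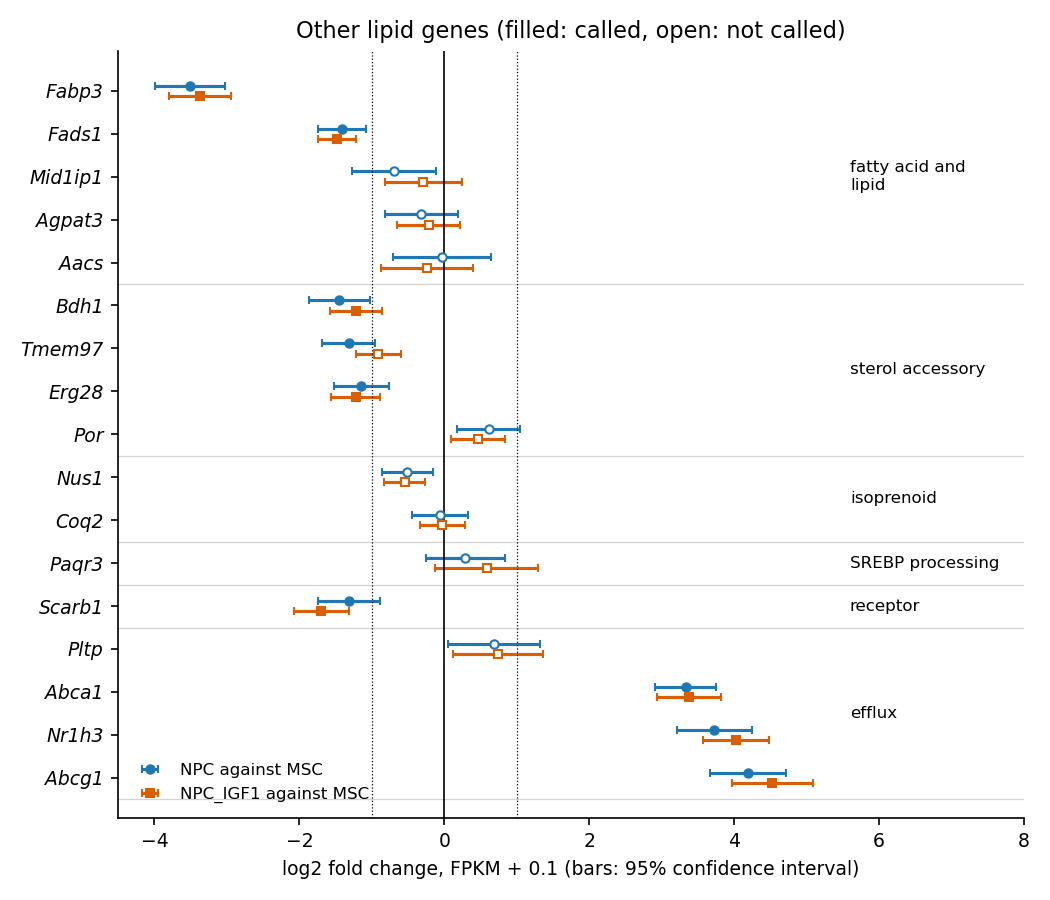
Log2 fold changes with 95% confidence intervals of the 17 other lipid genes tested, in NPCs and in NPCs with IGF-1 against MSCs, grouped by list, with filled marks for called genes and dotted lines at -1 and 1. Abca1, Nr1h3 and Abcg1 lie above 3, while Fabp3, Fads1, Bdh1, Erg28 and Scarb1 lie below -1 in both comparisons.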

How the data were processed

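Stranded mRNA-seq libraries (300 ng of input RNA each) were read single-end. Each of the 9 deposited files holds the Cufflinks transcripts of 1 library, annotated and newly assembled, with an FPKM on a linear scale, its confidence interval and coverage, which are the values the authors made (other measures, such as the score column as deposited, were not used). Per the labels, CASAVA 1.8, bcl2fastq, TopHat, Bowtie2, Cufflinks and Cuffdiff were run, and neither the labels nor the file headers name the build or annotation release of these Cufflinks files. The paper's methods describe a further route (BBDuk, STAR on rn6 with Ensembl annotation, RSEM, DESeq2), whose values were not used. The supplementary tables served to pair symbols with gene IDs and to compare the strands of genes.

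FPKM were summed over isoforms, a newly assembled transcript joining the annotated gene of the same strand with the largest exon overlap (at least 1 base). Sums were scaled by size factors from the median of ratios (0.884 to 1.062 in the fit of 6 libraries, 0.872 to 1.045 in that of 9), and limma 3.58.1 in R 4.3.3 (eBayes with trend) was fitted to log2(FPKM + 0.1), which understates changes of low genes, for genes at 0.1 FPKM or more in at least 3 libraries and with an annotated transcript of at least 300 bases. NPC against MSC used 6 libraries, the comparisons with NPC_IGF1 all 9. Tests were tried on simulated data first. An exact permutation test of 3 against 3 cannot go below p = 0.1 and was not used. The implied reads are (2 × FPKM / (upper bound - FPKM)) squared. All 6 members found passed the filter and are named with each library's value; from each other list up to 4 genes were named, called genes by size of change first, then by mean FPKM, and Agpat3, Elovl6 and Acacb were added after their values had been seen. The promoters of Pmvk and Fdft1 were not in the RefSeq (GRCr8) table. Members, lists and tests were chosen with earlier results of these data known. Alternatives are given in the closing section.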

Additional observations from a re-analysis of the deposited data

How the results depend on the processing

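Each member kept its call and, where called, its direction under every alternative run (17 for NPC against MSC, 20 for each comparison with NPC_IGF1), and 5 members fell in both comparisons with MSCs each time. Those 5 were found through the study's table of changed genes, from which Insig2 was absent. Calls that hold across the alternatives are therefore no independent evidence of a change or of its lack. The log2 fold change in NPCs ranged over the alternatives from -2.76 to -2.19 for Acat2, -1.55 to -1.23 for Pmvk, -1.60 to -1.38 for Fdft1, -3.21 to -2.79 for Cyp51, -1.51 to -1.31 for Srebf2 and -0.52 to 0.02 for Insig2, whose sign depended on the libraries kept. Without MSC library 3 Insig2 was at -0.52, and without MSC library 2 at 0.02. Weighting isoforms by length was chosen after seeing the data.

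Counts over all genes moved more. In NPC against MSC, 1566 genes rose and 1383 fell, against 800 and 914 with a pseudocount of 1 and 592 and 607 with annotated transcripts only. In NPC_IGF1 against MSC, 1648 rose and 1398 fell, against 835 and 924 with a pseudocount of 1 and 767 and 734 with annotated transcripts only. In NPC_IGF1 against NPC, 2 rose and 1 fell. There the rises numbered 1 with a pseudocount of 0.01, a filter at 1 FPKM, quantile normalisation or the replicate block, and 12 with annotated transcripts only. The falls numbered 2 with no filter or without trend, 0 with the replicate block or the 6 libraries alone, and 7 with annotated transcripts only. The causes were not tested. Leaving out 1 library at a time gave 0 to 5 rises and 0 to 7 falls there, 1061 to 1394 and 1155 to 1489 in NPC against MSC, and 1456 to 1664 and 1227 to 1409 in NPC_IGF1 against MSC.

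The study's methods derive NPCs from the MSCs of the same 3 rats, but no source ties a library number to a rat. NPC and MSC libraries of the same number correlated at r = 0.037, 0.103 and 0.008 in their deviations from the group means, so the numbers were not taken as pairs. With the replicate block, 1506 genes rose and 1357 fell in NPC against MSC, 1625 and 1379 in NPC_IGF1 against MSC, and no member changed its call. NPC libraries 1 and 2 correlated best with the MSC library of their own number, and NPC library 3 did not.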

Other observations

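Isoforms other than the annotated one were assembled for 3 of the 6 members. Beside Cyp51, a 3-exon Pmvk isoform of 892 bases was assembled in MSC library 2 (22.2% of its Pmvk FPKM) and NPC_IGF1 library 2 (26.8%), and an Insig2 isoform of 6 exons in NPC library 3 (48.8%). Without these, the Insig2 log2 fold change of NPC_IGF1 against NPC was 0.50 in place of 0.22, and it was not called on either scale.

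Acat2 was on the minus strand in the deposited files and on the plus strand in the supplementary gene table and in RefSeq. Of the genes on the same chromosome in the files and that table, 2339 of 2412 had the same strand in both, against 1 of the 7 genes within 2000000 bases of Acat2. The values of Acat2 follow its gene ID and do not use the strand of the table.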
